A study of Triticum aestivum with 3 samples.

Results

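miR5634, miR8606, miR11418 and miR2592 are 4 microRNA families whose names appear among the small RNAs matched to wheat degradome reads. They were taken here as every deposited line whose small RNA name carries miR or MIR followed by exactly 1 of these 4 numbers, with lines that hold the same reads counted once. These families make up 4 of 244 families, 12 of 1233 small RNA names, 214 of 12450 pairs of small RNA and transcript, and 84 of 4574 distinct signals. They hold 1309 of 55312 reads (2.37%). The families were chosen by their values in DTT+TUDCA against the control, so their values in that contrast are given as a description with no test. The libraries came from leaves of wheat (Triticum aestivum) seedlings after 2 days of treatment with DTT+TUDCA (labelled T), with DTT alone (labelled D) or in the control (labelled C), with 9 libraries in all. The series' design text states 3 independent biological replicates of each treatment. The labels used here hold 1 sample record per treatment, and the 3 columns of each treatment were read as those replicates. The series asked for targets of microRNAs involved in stress of the endoplasmic reticulum. The labels give no genotype, dose or vehicle, and the files hold no transcript annotation with which to check the tissue.

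A plant microRNA guides an Argonaute protein to a complementary site in a transcript, and slicing there leaves a downstream fragment with a 5′ monophosphate. Degradome sequencing ligates an adaptor to such ends and counts them, so a read marks the end of a decay fragment and not the amount of the microRNA. Conserved families such as miR156 or miR164 occur across most land plants and mainly target transcription factors, whereas many other microRNAs are known from a single lineage and often lack an established target. DTT (dithiothreitol) is a reductant that breaks the disulphide bonds of proteins folding in the endoplasmic reticulum. TUDCA (tauroursodeoxycholic acid) is a bile salt given as a chaperone to ease that stress. The prefixes in the names point to the species of the matched entry: ath for Arabidopsis thaliana, atr for Amborella trichopoda, pab for the spruce Picea abies and mtr for Medicago truncatula. Endings such as -p5 and -p3 name an arm of the precursor, and endings such as 2ss mark substitutions against the named entry. The roles of these 4 families in wheat are not given here, since their sequences and the annotation of their transcripts were not at hand. Whether the reads arose by slicing was not tested, and in whole leaves fewer cells that carry a transcript and less of it per cell cannot be told apart.

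Each library held between 11253643 and 13006162 reads, and levels below are raw degradome reads per 10M library reads, as mean ± SD of 3 libraries. A signal is a set of lines with a common small RNA or transcript and with raw reads that differ by at most 20% over the 9 libraries. Signals in the whole series summed to 5553 ± 420 reads per 10M with DTT+TUDCA, 4725 ± 954 with DTT and 4452 ± 354 in the control, and DTT replicate 3 was the lowest library at 3700. The part of this library-wide difference in the results below was not tested, and it is given beside them as the median fold change of all signals. The files hold no transcript lengths, so levels are compared between treatments and not between transcripts.

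The 84 signals were unevenly spread over the families. miR5634 was 1 name on 1 transcript, with 1 signal of 94 reads. miR8606 was also 1 name, but was listed on 49 transcripts that merged into 26 signals with 268 reads. miR11418 was 1 name on 77 transcripts, with 29 signals and 380 reads. miR2592 was 9 names on 61 transcripts, with 28 signals and 567 reads. Depth was thin, since 17 signals reached 10 reads over the 9 libraries, 18 had between 4 and 9, and 49 had 3 or fewer, of which 22 rested on 1 read. Of the 188 transcripts, 152 carried identifiers that name a chromosome arm, 24 carried provisional identifiers such as Novel04012 and 12 carried EPlTAEG identifiers, and the last were listed for miR2592 and not for the other families. None of the lines of these 4 families merged with lines of another family.

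**Figure D1:**
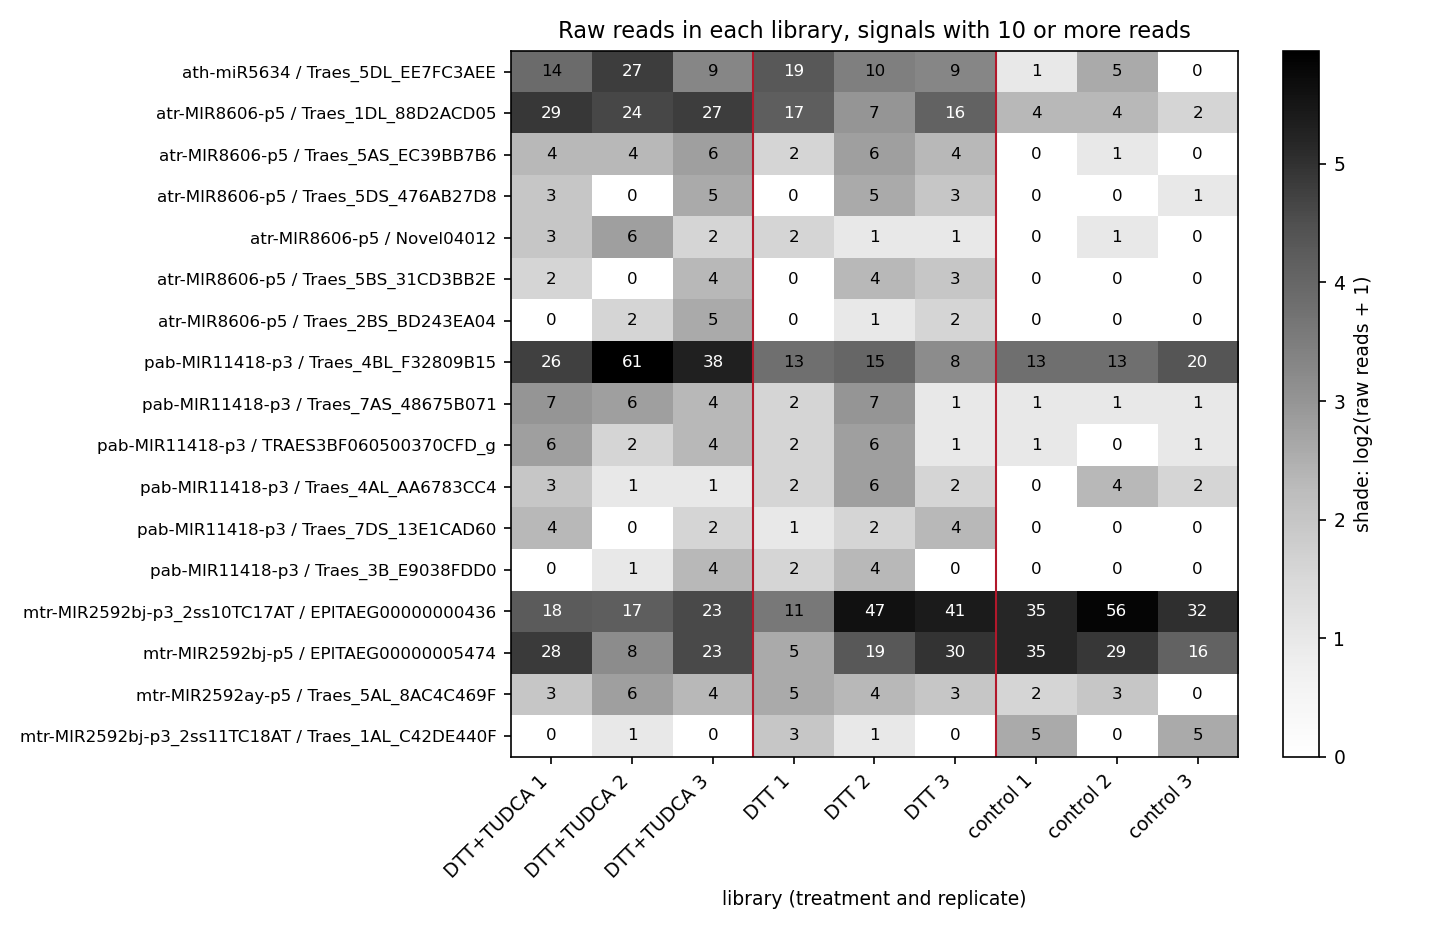
Raw reads in each of the 9 libraries (columns, grouped by treatment and parted by lines) for the 17 signals with 10 or more reads (rows, labelled with the small RNA and its representative transcript). The number in each cell is the raw read count and the shade its log2 after adding 1. In 4 rows, 2 each of miR8606 and miR11418, the control libraries hold no read at all, while both mtr-MIR2592bj rows with EPlTAEG transcripts hold reads in every library.

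The ath-miR5634 signal on Traes_5DL_EE7FC3AEE, by its identifier a transcript of the long arm of chromosome 5D, had 14, 27 and 9 reads with DTT+TUDCA, 19, 10 and 9 with DTT, and 1, 5 and 0 in the control. These raw counts were 1.8 to 2 times the deposited normalized numbers, so the reads may also belong to places that are not listed. All 6 libraries that received DTT lay above all 3 control libraries, while the DTT+TUDCA and DTT libraries overlapped. Its level was 12.95 ± 7.02 with DTT+TUDCA, 10.02 ± 4.42 with DTT and 1.61 ± 2.14 in the control, so that DTT+TUDCA and DTT differ by less than their spread. In the contrast that chose it, DTT+TUDCA against the control, the log2 fold change was 2.90 (SE 0.67), or 2.60 relative to the median of all tested signals. Its size depended on control replicate 2, which held 5 of the 6 control reads: without that library the log2 fold change was 4.66. The 15 alternatives gave 2.38 to 4.66. DTT against the control shares the 3 control libraries with that contrast. There the ath-miR5634 signal had a log2 fold change of 2.53 (SE 0.88) that did not pass, with an adjusted p of 0.0902 by edgeR's quasi-likelihood test with Benjamini-Hochberg adjustment over all 156 signals tested, where 0.05 was the threshold. Pooled over libraries, 38 reads with DTT against 6 in the control make a ratio of 6.03. Its 95% exact interval, which covers counting error only, was 2.53 to 17.4. Without control replicate 2, 38 reads stood against 1 (ratio 23.8, interval 4.02 to 964) and the signal passed, with an adjusted p of 0.0132 by edgeR. That was the only 1 of 15 alternatives in which it passed. Where the filter on low counts (a minimum count of 5) was used, the signal entered through its DTT libraries. Its control libraries, with 1, 5 and 0 reads, would not have met that filter as a group, so no support is drawn from the pass. The highest adjusted p was 0.612 by edgeR, without control replicate 3. The comparison of DTT+TUDCA with DTT shares the 3 DTT+TUDCA libraries with the choosing contrast, and there the log2 fold change was 0.37 (SE 0.53, adjusted p = 0.938 by edgeR), and it turned to -0.14 without DTT+TUDCA replicate 2, the library with 27 reads.

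**Figure D2:**
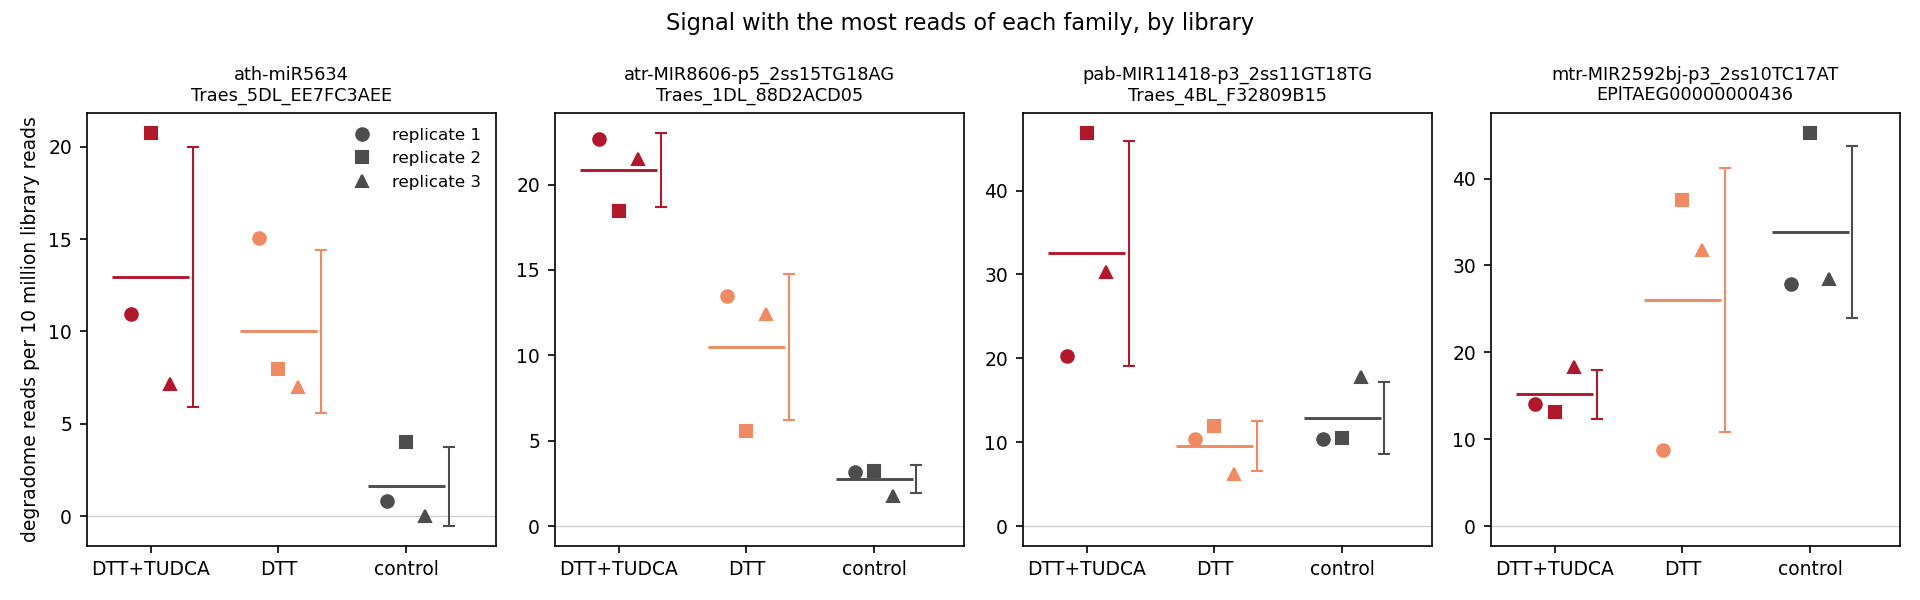
Reads per 10M library reads (vertical axis) of the signal with the most reads of each family, by treatment. Points are libraries with a shape for each replicate, horizontal lines are means and bars are SDs of 3 libraries. For miR5634 and miR8606 every point with DTT+TUDCA or DTT lies above every control point, for miR11418 the DTT+TUDCA points lie above both other treatments, and for miR2592 they lie below the control points.

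The main miR8606 signal, atr-MIR8606-p5_2ss15TG18AG on Traes_1DL_88D2ACD05, was ordered over all 9 libraries without overlap. It had 29, 24 and 27 reads with DTT+TUDCA, 17, 7 and 16 with DTT, and 4, 4 and 2 in the control. Its level was 20.9 ± 2.17 with DTT+TUDCA, 10.5 ± 4.29 with DTT and 2.73 ± 0.828 in the control. Its raw counts were 3 times the deposited normalized numbers, so these reads too may belong to places that are not listed. The choosing contrast, DTT+TUDCA against the control, gave a log2 fold change of 2.87 (SE 0.51), or 2.57 relative to all signals. DTT against the control, with the control libraries shared, gave 1.89 (SE 0.79), which did not pass (adjusted p = 0.194 by edgeR). The signal entered that fit through its DTT libraries, since its control reads of 4, 4 and 2 lie under the filter's minimum count of 5. DTT+TUDCA against DTT, with the DTT+TUDCA libraries shared, gave 0.98 (SE 0.46), which did not pass either (adjusted p = 0.669 by edgeR). The pooled ratios were 3.81 (interval 1.87 to 8.53) for 40 reads with DTT against 10 in the control, and 1.98 (1.34 to 2.97) for 80 reads with DTT+TUDCA against 40 with DTT. Both intervals lie above 1, but they cover counting error only, and over all signals the replicates of a treatment differed by more than that.

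The same small RNA had 5 further signals with 10 or more reads. That on Traes_5AS_EC39BB7B6 and Traes_5DS_BDF5CCD6F, which by their identifiers lie on the short arms of 5A and 5D, had 4, 4 and 6 reads with DTT+TUDCA, 2, 6 and 4 with DTT, and 0, 1 and 0 in the control. All 6 libraries with DTT again lay above the control, at a level of 3.66 ± 0.972 with DTT+TUDCA and 3.16 ± 1.60 with DTT, against 0.270 ± 0.467 in the control. The signal on Novel04012 and Novel03204 had 3, 6 and 2 reads with DTT+TUDCA, 2, 1 and 1 with DTT, and 0, 1 and 0 in the control, and its 3 DTT+TUDCA libraries lay above the other 6. The margin there was the library size alone, since DTT+TUDCA replicate 3 and DTT replicate 1 had 2 reads each.

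The remaining 3 had libraries with no read in every treatment. On Traes_5DS_476AB27D8 there were 3, 0 and 5 reads with DTT+TUDCA, 0, 5 and 3 with DTT, and 0, 0 and 1 in the control. On Traes_5BS_31CD3BB2E there were 2, 0 and 4 reads with DTT+TUDCA, 0, 4 and 3 with DTT, and none in the control. These transcripts of 5D and 5B have near-identical counts and may share reads. The signal on Traes_2BS_BD243EA04 and Traes_2DS_298608883 had 0, 2 and 5 reads with DTT+TUDCA, 0, 1 and 2 with DTT, and none in the control, where a count of 0 allows up to 3 reads over the group. None of these 5 signals passed the filter on low counts, so none was tested.

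Summed over its 25 other signals, which hold 51.5% of its reads, miR8606 had 15, 21 and 30 reads with DTT+TUDCA, 9, 33 and 17 with DTT, and 3, 7 and 3 in the control. The level of the sum was 17.3 ± 6.18 with DTT+TUDCA, 15.6 ± 9.82 with DTT and 3.57 ± 1.81 in the control. It counts the signals of Traes_5DS_476AB27D8 and Traes_5BS_31CD3BB2E apart, although they may share reads. The treatments with DTT lay above the control but overlapped each other, and had no settled order. The log2 ratio of the means of DTT+TUDCA and DTT was 0.15, against -0.16 without DTT+TUDCA replicate 3, -0.20 without DTT replicate 1 and 0.76 without DTT replicate 2. The number of miR8606 signals with a read was 7, 12 and 12 with DTT+TUDCA, 7, 13 and 9 with DTT, and 3, 7 and 4 in the control. Of its 26 signals, 14 had no control read, against 9 with no DTT+TUDCA read and 9 with no DTT read. Over the whole series, the number of signals with a read per library was also lowest in the control. It was 1503 ± 83.0 with DTT+TUDCA, 1275 ± 159 with DTT and 1190 ± 44.8 in the control. How much of this enters the miR8606 counts was not tested.

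The main miR11418 signal showed another order, in which DTT and control libraries overlapped and DTT+TUDCA stood above both. The pab-MIR11418-p3_2ss11GT18TG signal on Traes_4BL_F32809B15 and Traes_4DL_F394FF94A, transcripts of the long arms of 4B and 4D, had 26, 61 and 38 reads with DTT+TUDCA, 13, 15 and 8 with DTT, and 13, 13 and 20 in the control. Its level was 32.5 ± 13.4 with DTT+TUDCA, 9.50 ± 2.97 with DTT and 12.9 ± 4.24 in the control. The log2 fold change in the choosing contrast, DTT+TUDCA against the control, was 1.34 (SE 0.40), or 1.04 relative to all signals. For DTT against the control, with shared control libraries, it was -0.43 (SE 0.56, adjusted p = 0.740 by edgeR). DTT+TUDCA against DTT, with shared DTT+TUDCA libraries, gave 1.77 (SE 0.47), or 1.50 relative to all signals, which did not pass, with an adjusted p of 0.0856 by edgeR over 187 signals. In 1 fit of all 3 treatments the same fold change passed, with an adjusted p of 0.0217, and over the 15 alternatives the adjusted p ran from 0.0217 to 0.799. The pooled ratio of 125 reads with DTT+TUDCA to 36 with DTT was 3.44 (interval 2.36 to 5.13). Without DTT+TUDCA replicate 2, which held 61 reads, it was 2.67 (interval 1.75 to 4.13). Both intervals cover counting error only, and replicates of a treatment differed by more than that over all signals.

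The other miR11418 signals with 10 or more reads did not share that order. On Traes_7AS_48675B071 there were 7, 6 and 4 reads with DTT+TUDCA, 2, 7 and 1 with DTT, and 1, 1 and 1 in the control. The DTT+TUDCA libraries lay above the control there, while DTT libraries overlapped both. DTT replicate 2 and DTT+TUDCA replicate 1 had the most reads, with 7 each. Levels were 4.42 ± 1.15 with DTT+TUDCA, 2.65 ± 2.58 with DTT and 0.831 ± 0.0499 in the control. This signal was tested between the treatments with DTT only, where the log2 fold change of DTT+TUDCA against DTT was 0.73 (SE 0.88, adjusted p = 0.857 by edgeR). The signal of TRAES3BF060500370CFD_g and 7 other transcripts had 6, 2 and 4 reads with DTT+TUDCA, 2, 6 and 1 with DTT, and 1, 0 and 1 in the control. Its counts are close to those on Traes_7AS_48675B071, and both may hold the same reads.

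On Traes_4AL_AA6783CC4, Traes_5BL_082C825BB and Traes_5DL_9425B1DC1 the pab-MIR11418-p3 signal had 3, 1 and 1 reads with DTT+TUDCA, 2, 6 and 2 with DTT, and 0, 4 and 2 in the control, so that all treatments overlapped. On Traes_7DS_13E1CAD60 there were 4, 0 and 2 reads with DTT+TUDCA and 1, 2 and 4 with DTT. On Traes_3B_E9038FDD0 there were 0, 1 and 4 reads with DTT+TUDCA and 2, 4 and 0 with DTT. The control held no read of these last 2 signals, which allows up to 3 reads over the group.

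Its 28 other signals, with 45.5% of the miR11418 reads, summed to 34, 25 and 22 reads with DTT+TUDCA, 13, 35 and 13 with DTT, and 6, 12 and 13 in the control. The level was 21.1 ± 4.79 with DTT+TUDCA, 16.1 ± 10.2 with DTT and 8.68 ± 3.50 in the control. The DTT mean rested on DTT replicate 2: the log2 ratio of the means of DTT and control was 0.89 with all libraries and 0.23 without that one. With the authors' normalized read numbers, an alternative chosen after seeing the data, this ratio was 0.37. The raw sums count the signals of Traes_7AS_48675B071 and TRAES3BF060500370CFD_g apart, although both may hold the same reads. Of the 29 miR11418 signals, 15 had no control read, against 8 with no DTT+TUDCA read and 14 with no DTT read. The whole-series numbers of signals with a read, given above for miR8606, apply here too. DTT replicate 2 also held the most reads of the other miR8606 signals, where the corresponding ratio was 2.12 with it and 1.51 without it.

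**Figure D3:**
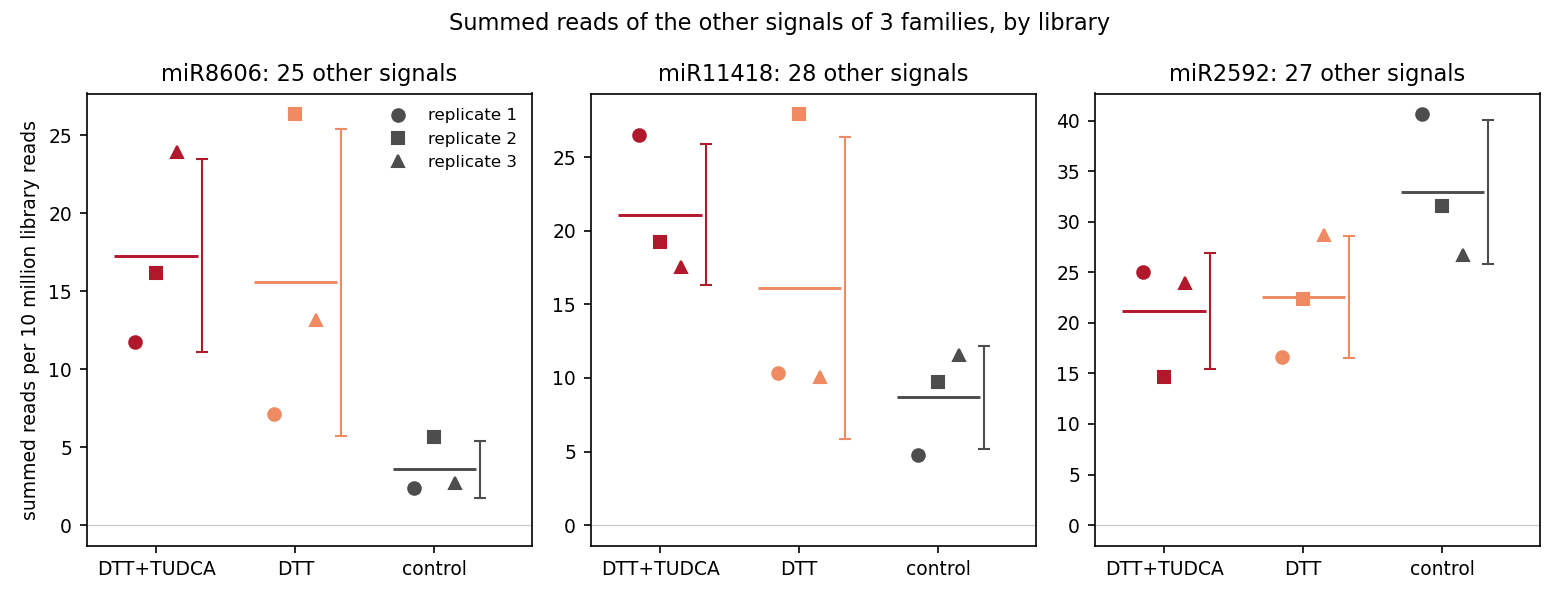
Summed reads per 10M library reads (vertical axis) of all signals other than the strongest, by treatment, for miR8606, miR11418 and miR2592. Points are libraries, horizontal lines means and bars SDs of 3 libraries. For miR8606 the control points lie below all others, DTT replicate 2 is the highest library for miR8606 and miR11418, and the control mean is the highest of the 3 for miR2592.

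The miR2592 family had its highest mean in the control, with all signals summing to 36.3 ± 7.66 with DTT+TUDCA, 48.6 ± 20.1 with DTT and 66.8 ± 11.0 in the control. Its main signal, mtr-MIR2592bj-p3_2ss10TC17AT on 9 EPlTAEG transcripts including EPlTAEG00000000436, had 18, 17 and 23 reads with DTT+TUDCA, 11, 47 and 41 with DTT, and 35, 56 and 32 in the control. The DTT+TUDCA libraries lay below the control libraries and were close to each other, while DTT spanned both groups, with replicate 1 the lowest of all 9 libraries. Its level was 15.2 ± 2.80 with DTT+TUDCA, 26.0 ± 15.2 with DTT and 33.9 ± 9.89 in the control. In the choosing contrast, DTT+TUDCA against the control, the log2 fold change was -1.16 (SE 0.39), or -1.46 relative to all signals. For DTT against the control, with shared control libraries, it was -0.38 (SE 0.44, adjusted p = 0.714 by edgeR), and 0.03 without DTT replicate 1. Between DTT+TUDCA and DTT, with shared DTT+TUDCA libraries, it was -0.78 (SE 0.50, adjusted p = 0.752 by edgeR). The deposited normalized read number of this signal is the raw count divided by 10, so the authors' processing appears to have spread each read over several places.

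The other arm, mtr-MIR2592bj-p5_1ss12TC, had a signal on EPlTAEG00000005474, EPlTAEG00000007651, EPlTAEG00000010112 and Traes_3DL_B80EC2366. It had 28, 8 and 23 reads with DTT+TUDCA, 5, 19 and 30 with DTT, and 35, 29 and 16 in the control, and all treatments overlapped. Its level was 15.4 ± 8.24 with DTT+TUDCA, 14.1 ± 9.69 with DTT and 21.9 ± 6.98 in the control. The log2 fold change was -0.51 (SE 0.41) for DTT+TUDCA against the control and -0.63 (SE 0.48, adjusted p = 0.549 by edgeR) for DTT against the control. Between DTT+TUDCA and DTT it was 0.12 (SE 0.57, adjusted p = 0.954 by edgeR), a direction that turned to -0.29 under TMM scaling, -0.14 after median centring and -0.37 with DESeq2, and that also reversed without DTT+TUDCA replicate 1 or 3 or DTT replicate 1. Over the 9 libraries the mtr-MIR2592bj-p3 and mtr-MIR2592bj-p5 signals had a Pearson r of 0.713, and DTT replicate 1 was the lowest library of both.

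mtr-MIR2592ay-p5_2ss6AG17CG_1 on Traes_5AL_8AC4C469F went the other way in its means, with 3, 6 and 4 reads with DTT+TUDCA, 5, 4 and 3 with DTT, and 2, 3 and 0 in the control. mtr-MIR2592bj-p3_2ss11TC18AT_1 on Traes_1AL_C42DE440F had 0, 1 and 0 reads with DTT+TUDCA, 3, 1 and 0 with DTT, and 5, 0 and 5 in the control. The libraries of these 2 signals overlapped between treatments, and neither passed the filter. The transcript Traes_1AL_C42DE440F was also listed with 347 reads of aof-miR168a_R-2, a name of the miR168 family, which in plants targets ARGONAUTE1.

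The 27 other miR2592 signals, with 50.6% of its reads, summed to 32, 19 and 30 reads with DTT+TUDCA, 21, 28 and 37 with DTT, and 51, 39 and 30 in the control. The level was 21.2 ± 5.71 with DTT+TUDCA, 22.6 ± 6.01 with DTT and 32.9 ± 7.10 in the control. Of its 28 signals, 19 had no DTT+TUDCA read, against 11 with no DTT read and 11 with no control read. The number of its signals with a read was 4, 8 and 5 with DTT+TUDCA, 10, 8 and 6 with DTT, and 8, 9 and 6 in the control. Whether this differs from miR8606 and miR11418 was not tested.

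The count of called signals is set here against all signals of the series. For DTT against the control, 0 of 5 tested signals of the 4 families passed, where 3.21% of all 156 tested signals did (4 higher and 1 lower). Of those 5, 2 had an unadjusted p under 0.05, namely the ath-miR5634 and main atr-MIR8606-p5 signals, as had 26 of all, and DESeq2 and limma also called 0. Both signals passed the filter on low counts through their DTT libraries and share the controls that chose the families. No support is drawn from their p-values. Without control replicate 2 the count was 1, the ath-miR5634 signal. Between DTT+TUDCA and DTT, 0 of 6 passed, where 1.07% of 187 did, with 2 of the 6 and 13 of all at an unadjusted p under 0.05, and again 0 by DESeq2 and limma. Between DTT+TUDCA and the control the cutoff was met by 4 of 5, 3 higher and 1 lower, a count that the choice of the families fixed and that is no test of them. It was 1 without DTT+TUDCA replicate 2, and 2 without DTT+TUDCA replicate 3 or control replicate 2. The shares over all 166 signals in that fit were 9.64% in either direction, 8.43% higher and 1.2% lower, and nothing is read from the count against them. The other 79, 78 and 79 of the 84 signals had too few reads to be tested in these 3 comparisons.

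Over the few signals of the 4 families that entered a fit, which are not all members, the median log2 fold change was 1.34 for DTT+TUDCA against the control, 0.55 for DTT+TUDCA against DTT and -0.38 for DTT against the control. Over all tested signals of the series it was 0.30 for the first of these comparisons, 0.26 for the second and -0.08 for the third. The first comparison chose the families, so its median of 1.34 was set by that choice and is no test of them. Both other comparisons share libraries with it. Among the 17 signals with 10 or more reads, the libraries did not overlap between DTT and the control in 4, all higher with DTT. Over all 707 such signals this held for 15.6% in either direction, 7.5% higher and 8.06% lower. The 4 were ath-miR5634, atr-MIR8606-p5 on 1DL and on 5AS with 5DS, and pab-MIR11418-p3 on Traes_7DS_13E1CAD60. It held between DTT+TUDCA and DTT for 3, all higher with DTT+TUDCA, against 13.4% of all (8.35% higher and 5.09% lower): atr-MIR8606-p5 on 1DL and on Novel04012, and the main pab-MIR11418-p3 signal. It also held between DTT+TUDCA and the control for 8, of which 7 were higher, against 18.2% of all (11.3% higher and 6.93% lower), in the contrast that chose the families.

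**Figure D4:**
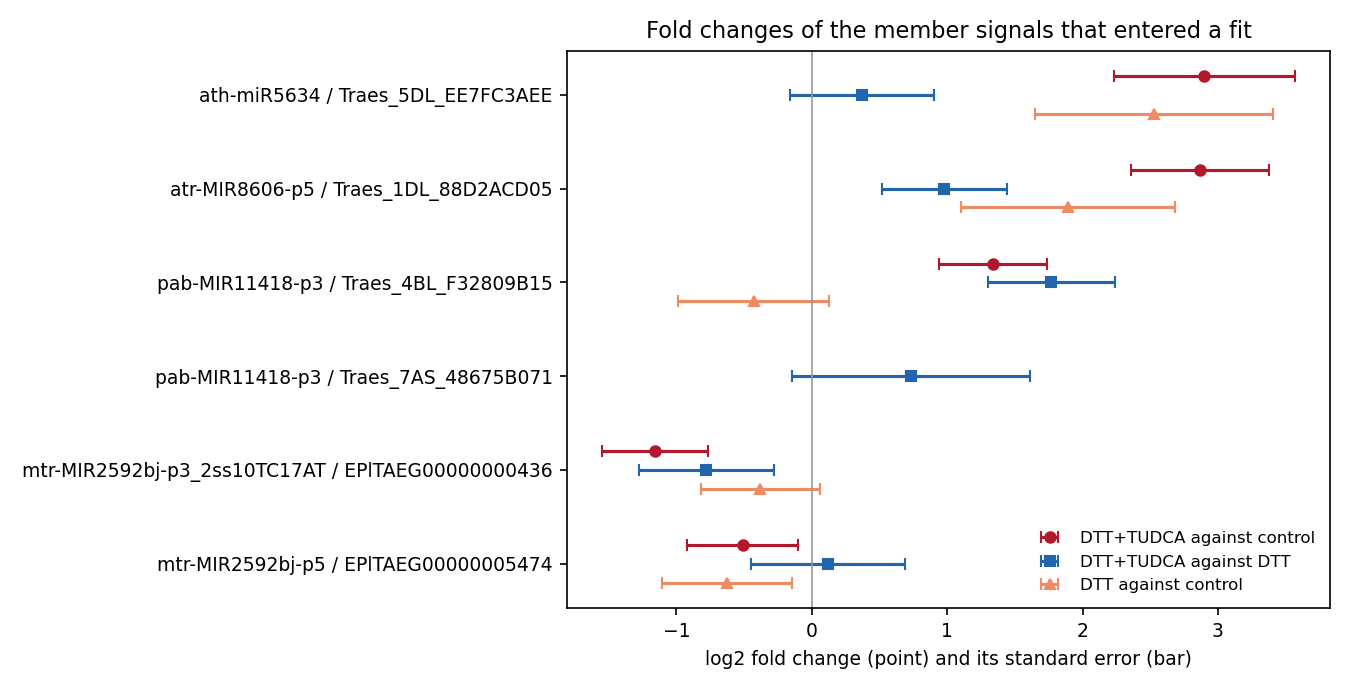
Log2 fold changes (horizontal axis, points) with their standard errors (bars) of the 6 member signals that entered a fit, in the 3 comparisons. The pab-MIR11418-p3 signal on Traes_4BL_F32809B15 has 1.34 and 1.77 against control and DTT for DTT+TUDCA but -0.43 for DTT against control, whereas ath-miR5634 and atr-MIR8606-p5 lie above 0 in all 3 and mtr-MIR2592bj-p3 below 0 in all 3.

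The wider classes of small RNA had few calls as well. Small RNAs with a miR number outside the conserved families, the class these 4 belong to, had 2 of 82 tested signals higher and 0 lower for DTT against the control, 8 of 87 higher and 1 lower for DTT+TUDCA against the control, and 1 of 104 higher and 0 lower for DTT+TUDCA against DTT. The conserved families had 2 of 61 higher and 1 lower for DTT against the control, 6 of 65 and 1 for DTT+TUDCA against the control, and 1 of 68 and 0 for DTT+TUDCA against DTT. Of the 9 signals called in the first class for DTT+TUDCA against the control, 4 are thus those that chose the families described here.

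Between the 4 main signals, those of miR5634 and miR8606 had the most similar levels over the 9 libraries, with a Pearson r of 0.838 on log2(reads per 10M + 1). That of miR11418 had an r of 0.281 with miR5634 and 0.422 with miR8606, and that of miR2592 was negative with all 3, at -0.563, -0.694 and -0.463 with miR5634, miR8606 and miR11418. These values describe 9 libraries that share their treatments and library depth, and 3 of the signals were chosen for being higher and 1 for being lower in the same contrast.

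The signals of other small RNAs most like ath-miR5634 were tae-MIR396-p3 on a 5BL transcript (r = 0.919), ath-miR847_L-2 on 2BS (0.915) and mtr-MIR2592ay-p5_2ss6AG17CG_1 on 5AL (0.907), out of 706 compared. Those most like the main atr-MIR8606-p5 signal were tae-MIR1135-p3_1ss21TC (0.957), tae-MIR396-p3 on 5BL (0.931) and PC-3p-142367_15 on 5AL (0.893), out of 701. Thus tae-MIR396-p3, at 6.50 ± 1.55 with DTT+TUDCA, 5.52 ± 2.37 with DTT and 1.10 ± 0.449 in the control, stood near both. Those most like the main pab-MIR11418-p3 signal were tae-MIR5175-p3 (0.873), osa-MIR812q-p3_1ss20TG (0.858) and bdi-MIR166g-p5_2ss10TG18AC (0.858), each on a transcript with a provisional identifier and with 10, 25 and 14 reads in all. No other signal reached 0.8 with mtr-MIR2592bj-p3_2ss10TC17AT, whose nearest was tae-MIR1122a-p3_1ss7AG at 0.753, whereas 23, 13 and 10 signals were above 0.8 with those of miR5634, miR8606 and miR11418.

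The transcripts of the 4 main signals were listed with no other small RNA. Among the other signals with 10 or more reads, 6 lay on a transcript that was. Apart from the miR168 name above, Traes_7DS_13E1CAD60 was listed with 32 reads of zma-MIR164h-p5_2ss4CG17CG_1, EPlTAEG00000010112 with 15 reads of osa-MIR1880-p3_2ss17TG18AG and Traes_4AL_AA6783CC4 with 9 reads of osa-MIR156k-p3_2ss13TC17TC. On Traes_5AL_8AC4C469F stood 3 reads of ata-miR172a-3p_R-2, and on Traes_5DS_BDF5CCD6F 1 read of zma-MIR164h-p5_2ss4CG17CG_1.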

How the data were processed

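The authors deposited 3 tables that each compare 2 treatments and list small RNAs with their transcripts. Raw degradome read counts and a normalized read number are given per library, per the file headers. The deposited normalized number behaves as an expected count: raw counts divided by 1 or more. The authors' signal, headed TPB in the file headers, is that number times 1 factor per library, from which library reads between 11253643 and 13006162 were recovered within 0.001. The labels and headers do not name the mapper, transcript set or target caller. These families fill 513 table lines. Repeated listings led to the removal of 3 pairs. The tables' columns are headed with the treatment letter and a number, taken as the 3 replicates of the design. If they were repeat libraries of 1 sample, the p-values would measure technical spread.

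Lines were merged at 20% and each signal was given by its line with the most reads, so lines with 1 read each may have been merged although their reads differ. Raw counts were tested with edgeR 4.0.16 (R 4.3.3, quasi-likelihood) over all signals, 2 treatments at a time, with library reads as library sizes, a minimum count of 5, a minimum total of 10, and Benjamini-Hochberg adjustment called at 0.05. Replicates of a treatment differed by more than counting noise. Alternatives used DESeq2 1.42.0, limma 3.58.1, other scalings, filters and merging, and left out libraries. Signals with 10 or more reads were named, with the 3 other signals most like each main one. The families, lists and rules were chosen with earlier results of these data known. None of the 188 transcript identifiers matched the reference gene table, and no sequences were at hand.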

Additional observations from a re-analysis of the deposited data

How the results depend on the processing

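The number of member signals called for DTT against the control was 0 under every alternative except without control replicate 2 (0 to 1 when leaving out 1 library each). There ath-miR5634, which entered the fit through its DTT libraries, passed. Between DTT+TUDCA and the control, where the choice of the families fixed the count and its stability supports nothing, the number called was 4, with 2 without a filter on low counts, 2 in 1 fit of all treatments, 3 under TMM, median centring and DESeq2, and 1 to 3 when leaving out 1 library each, with 1 without DTT+TUDCA replicate 2 and 2 without DTT+TUDCA replicate 3 or control replicate 2. For DTT+TUDCA against DTT it was 0, and 1 in 1 fit of all treatments. The replicate block left these counts at 0, 4 and 0. It gave 1, 18 and 1 calls over all signals, against 5, 16 and 2. Same-numbered libraries did not deviate together (correlations between -0.072 and 0.047). With 3 libraries per treatment and few reads in most signals, this cannot exclude that the numbers pair the libraries. The calls over all signals for DTT+TUDCA against the control were 29 with lines merged at 5%, 31 with identical lines merged and 9 without a filter. They were 8 to 24 when leaving out 1 library each. For DTT against the control they were 3 under TMM, DESeq2 and limma, 1 without a filter and 0 to 5 without 1 library. For DTT+TUDCA against DTT they were 0 to 3.

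Some directions reversed. The mtr-MIR2592bj-p3 fold change for DTT against the control was -0.74 to 0.03 when leaving out 1 library each. The mtr-MIR2592bj-p5 fold change for DTT+TUDCA against DTT was -0.29 under TMM, -0.14 after median centring, -0.37 with DESeq2 and -0.32 to 0.68 without 1 library. That of ath-miR5634 in the same comparison was -0.14 to 0.79 without 1 library. The log2 ratio of DTT+TUDCA to DTT of the summed other signals, without 1 library, was -0.20 to 0.76 for miR8606 and -0.27 to 0.12 for miR2592. The cause was not tested. For the summed other signals, the authors' normalized read numbers, an alternative chosen after seeing the data, gave log2 ratios of DTT to control of 1.96 for miR8606, 0.37 for miR11418 and -0.58 for miR2592, in the directions of the raw reads. With 18 signals at 4 to 9 reads and 49 at 3 or fewer, depth limits what can be said of most of the 84.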
